A study of Mus musculus with 16 samples.

Results

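The genes described are 34 transcripts of nucleotide excision repair and translesion DNA synthesis, chosen by name: every row of the count table whose gene symbol is on a list of damage recognition factors, subunits of the transcription factor TFIIH, verification and incision factors, gap filling and ligation enzymes, and translesion polymerases. All 34 were found among the 24421 genes of the table, and all 34 passed the filter on low counts in each comparison. RNA was sequenced from skin of female SKH-1 mice, a hairless strain used for work on ultraviolet carcinogenesis. The labels place 16 libraries in 8 groups of 2. UVB epidermis came from mice irradiated with 60 mJ/cm2 UVB in 2 sessions per week for 2, 15 or 25 weeks, and control epidermis came from mice with no agent at the same weeks. Tumors came from mice irradiated in the same way for 25 weeks, and the whole skin set beside them came from mice with no agent at week 25. No group carries a transgene or deletion in the labels, and the time between the last irradiation and tissue collection is not given in the sources used here.

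Ultraviolet B light joins neighbouring pyrimidines in DNA. In mammals nucleotide excision repair finds such lesions either anywhere in the genome or where they stall RNA polymerase, opens the helix with TFIIH, cuts the damaged strand on both sides, and fills and seals the gap. Lesions still present when the DNA is copied can be passed by translesion polymerases, of which polymerase eta is best known for its role in sun-exposed skin.

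Totals ran from 2905165 counts in the second week 2 control library to 7959503 in the first whole skin library, and the 34 genes together held between 0.1574% and 0.2556% of a library. Levels are given as CPM, the count scaled to the size of its library, or, between genes, as CPM per kilobase of exon (RPKM). Where values of a group are listed, the library numbered 0 is first and the library numbered 1 second. Whether both libraries of a group stem from different mice is not stated in the labels; the p-values therefore reflect the spread between libraries, which may be technical. In tissue RNA of this kind, fewer cells of a type and less RNA per cell cannot be told apart. The labelled tissue was checked with lists of marker genes. Summed over 7 fibroblast genes, tumors had 1210 to 1650 CPM and whole skin 614 to 1240 CPM, and each epidermis library stood lower, UVB epidermis with 8.32 to 11.6 CPM at week 2, 4.37 to 8.03 CPM at week 15 and 35.6 to 144 CPM at week 25, against 38.3 to 59.4, 8.59 to 15.3 and 4.06 to 8.1 CPM in control epidermis. Summed over 7 skeletal muscle genes, UVB epidermis had 13.6 to 77.7 CPM and control epidermis 19.2 to 72.4 CPM, against 1970 to 2170 CPM in tumors and 1810 to 3400 CPM in whole skin. Summed over 10 hair follicle genes, UVB epidermis had 31.6 to 360 CPM and control epidermis 723 to 2530 CPM.

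In control epidermis the levels of the 34 genes spanned a wide range. Ddb1, the large subunit of the UV-damage DNA-binding complex, was highest at 82.7 ± 16.9 RPKM (SD, n = 6 libraries over 3 weeks). Rad23b, the partner that stabilises XPC, followed at 62.3 ± 6.07 RPKM, and Gtf2h5, the smallest TFIIH subunit, at 60.6 ± 12.2 RPKM. The 6 libraries of these 3 genes overlapped, between 58.1 and 106 RPKM for Ddb1, 51.2 and 69.0 RPKM for Rad23b and 49.3 and 81.3 RPKM for Gtf2h5. Pole, the catalytic subunit of polymerase epsilon, was lowest at 1.41 ± 0.626 RPKM. The damage sensors Xpc and Ddb2 lay near the bottom as well, with 7.13 ± 1.92 RPKM for Xpc and 4.46 ± 2.86 RPKM for Ddb2. Xpa, the scaffold of the incision complex, stood in the middle at 28.4 ± 5.84 RPKM.

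The DNA in front of 5 of these genes is shown because their transcripts were called for the mean over weeks of UVB under each of the alternatives tried: Mnat1, Rpa2, Rpa3 and Lig1 upward and Lig3 downward. Each line holds the 250 bases before the annotated start in RefSeq, build GRCm38.p6, read 5′ to 3′ on the strand of the gene. They lie at chr12:73123467-73123716 on the plus strand (Mnat1), chr4:132768110-132768359 on the plus strand (Rpa2), chr6:8259142-8259391 on the minus strand (Rpa3), chr7:13276925-13277174 on the plus strand (Lig1) and chr11:82780859-82781108 on the plus strand (Lig3). Capitals mark a core letter match for E2F, the factor family of S-phase genes.
Mnat1: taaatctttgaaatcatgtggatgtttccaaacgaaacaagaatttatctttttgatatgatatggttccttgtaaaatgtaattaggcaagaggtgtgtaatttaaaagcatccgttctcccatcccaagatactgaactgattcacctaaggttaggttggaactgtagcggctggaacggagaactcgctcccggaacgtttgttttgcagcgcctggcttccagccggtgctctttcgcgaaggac
Rpa2: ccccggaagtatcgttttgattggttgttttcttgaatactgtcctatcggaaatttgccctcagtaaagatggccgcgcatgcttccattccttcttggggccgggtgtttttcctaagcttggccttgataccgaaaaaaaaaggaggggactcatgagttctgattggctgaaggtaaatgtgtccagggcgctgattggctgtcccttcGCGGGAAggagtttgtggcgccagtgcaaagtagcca
Rpa3: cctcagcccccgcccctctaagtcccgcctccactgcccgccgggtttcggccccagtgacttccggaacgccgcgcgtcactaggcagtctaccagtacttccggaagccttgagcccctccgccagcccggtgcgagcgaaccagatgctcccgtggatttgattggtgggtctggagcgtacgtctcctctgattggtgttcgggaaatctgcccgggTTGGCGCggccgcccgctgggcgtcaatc
Lig1: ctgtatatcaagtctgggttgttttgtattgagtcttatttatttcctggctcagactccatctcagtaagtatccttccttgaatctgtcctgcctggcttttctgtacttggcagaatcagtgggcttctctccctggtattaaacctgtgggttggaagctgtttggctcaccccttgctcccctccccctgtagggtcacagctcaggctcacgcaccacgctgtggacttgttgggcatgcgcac
Lig3: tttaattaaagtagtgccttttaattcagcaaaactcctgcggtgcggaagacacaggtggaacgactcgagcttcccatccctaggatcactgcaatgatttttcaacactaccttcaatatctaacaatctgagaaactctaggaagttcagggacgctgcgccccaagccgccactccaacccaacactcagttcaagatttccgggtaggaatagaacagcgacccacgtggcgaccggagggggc
Rpa2 held GCGGGAA 37 bases before its start and Rpa3 held TTGGCGC 29 bases before its start, while the windows of Mnat1, Lig1 and Lig3 held no such match. The start used for Lig1 lies 138 bases from the gene start in the count table. RefSeq promoters were found for 28 of the 34 genes, not for Xpc, Ddb2, Ercc3, Ccnh, Pole and Rev3l. Of the 28 windows, 8 held a core match (Ercc1, Ercc2, Ercc5, Gtf2h1, Gtf2h3, Rpa2, Rpa3 and Uvssa), against 7.89% of the 32851 promoter windows of the same length. The form searched first, on both strands, was TTTGGCGC, TTTCCCGC, TTTCGCGC or TTTGCCGC, and was in 0 of the 28 windows and in 1.86% of all windows. The core is each of these without its first T, also on both strands, so each match to the longer form holds one; it was chosen after that search and after the sequences were seen. The p53 consensus, a pair of decamers at most 13 bases apart, was searched as well and was in 0 of the 28 windows and in 0.0639% of all windows. A match describes the letters and is not evidence of binding.

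In epidermis, some of these transcripts were called as higher and others as lower with UVB. With both directions pooled, the called share of the 34 genes was 23.5% at week 2 and 0% at week 15. It was 17.6% at week 25 and 26.5% for the mean over weeks, to be set beside the shares of all genes below. A gene that was not called is not shown to be unmoved. At week 2, the quasi-likelihood test of edgeR, adjusted by Benjamini-Hochberg over all genes, called 8 of the 34 genes at an adjusted p under 0.05, 7 higher and 1 lower in UVB epidermis than in control epidermis. Over all genes 17.8% were called at this week, 8.09% of all genes as higher and 9.74% as lower. The median log2 difference was 0.32 for the 34 genes and -0.03 for all genes. At week 15 the same test called 0 of the 34 genes (3.49% of all genes), with 7 of the 34 at an unadjusted p under 0.05, and the DESeq2 Wald test called 1 gene, as lower. At week 25 it called 6 genes, 1 higher and 5 lower in UVB epidermis (21.5% of all genes, 10.6% higher and 10.9% lower), with a median of -0.07 for the 34 genes and 0.01 for all genes. With upper quartile scaling, which raised the median of all genes at week 25 to 0.19, the split was 4 higher and 3 lower. As the mean over the 3 weeks, 9 genes were called, 6 higher and 3 lower (29.5% of all genes, 14.4% higher and 15.1% lower), and 7 higher and 2 lower with upper quartile scaling. With 2 libraries in a group, a lack of overlap between UVB and control epidermis was common. It held for 23 of the 34 genes at week 2, 18 at week 15 and 25 at week 25. The share of all genes without overlap is not given for single weeks. Counts at an unadjusted p, by DESeq2 or under other settings, here and below, also come without a share of all genes. None of these counts is read as a trait of the 34 genes.

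**Figure D1:**
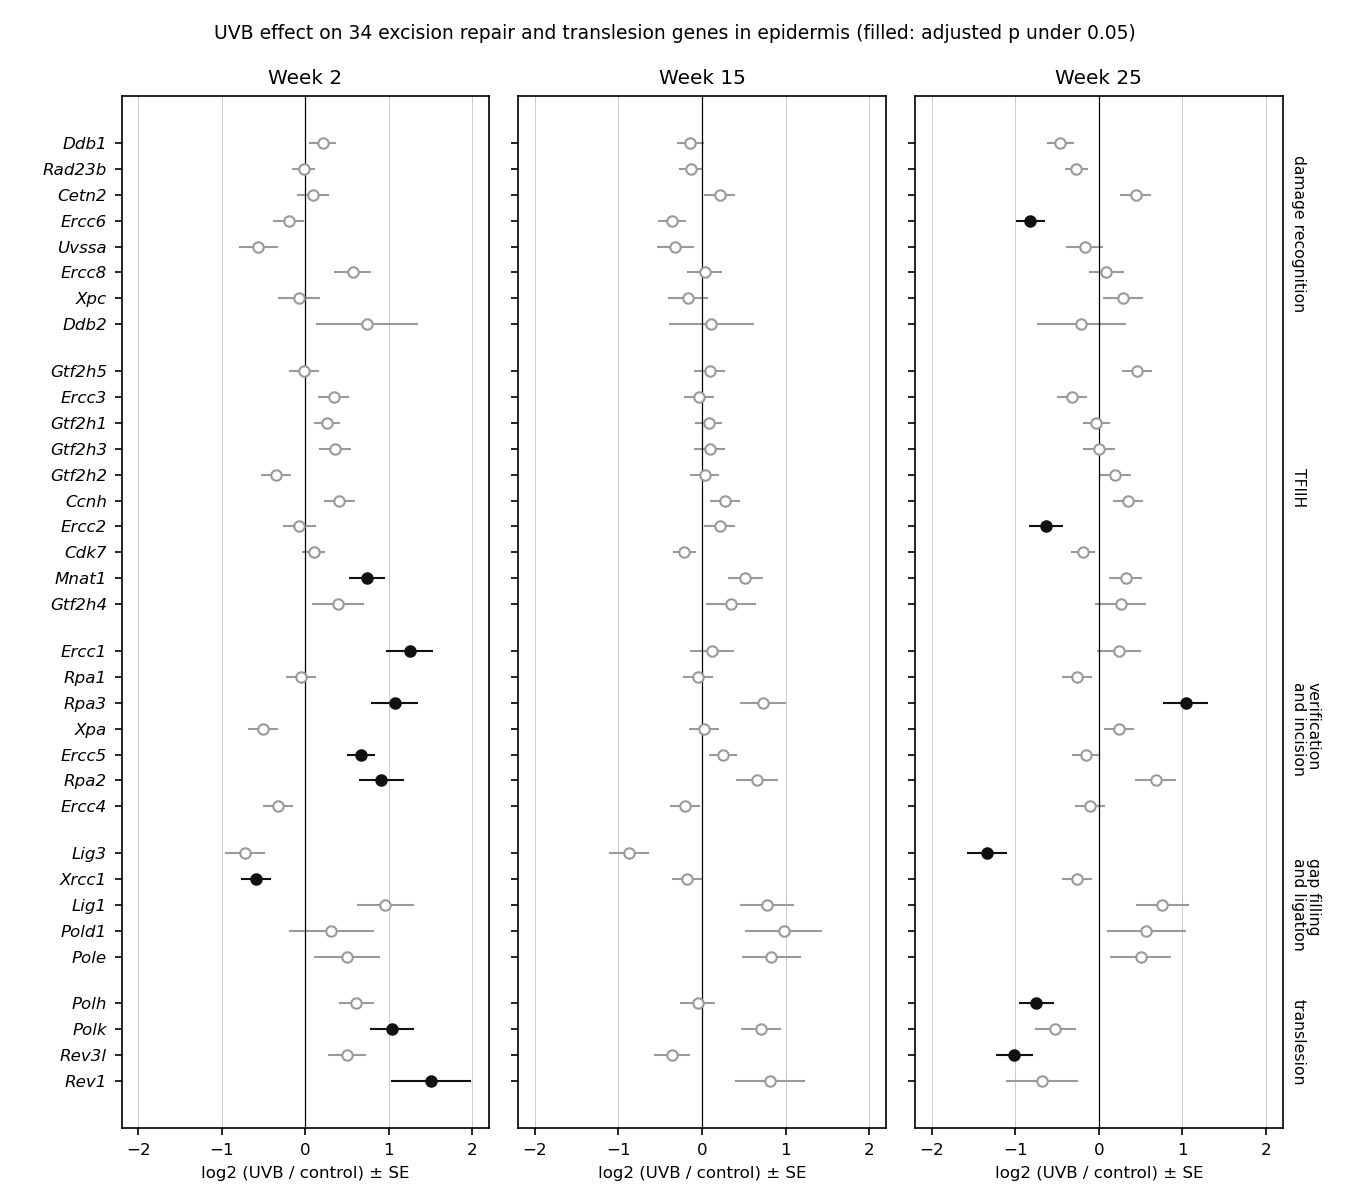
Log2 difference between UVB and control epidermis for each of the 34 genes at weeks 2, 15 and 25, ordered by role and within a role by level, with the standard error of the fit; filled points have an adjusted p under 0.05. 8 genes are filled at week 2, 0 at week 15 and 6 at week 25, and all 4 translesion points lie right of 0 at week 2 and left of it at week 25.

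Single libraries weighed heavily on the weekly counts. Each weekly fit with a library left out leaves 1 library in a group. Its count is given without the share of all genes, and so describes this dependence and not a trait of the 34 genes. Without the second week 2 control library, the shallowest of all, 0 genes were called at week 2, and without the first one 15 were. In that second library 27 of the 34 genes stood lower than in the first, with a median log2 of -0.33, against -0.05 for all genes. Without the second UVB library of week 2 the count was 0, and without the first 5. At week 15, 4 genes were called without the second control library. At week 25, 3 genes were called without the first control library, 1 without the second, 1 without the first UVB library and 2 without the second. The count for the mean over weeks kept within 1.5 times of its value when any of the 12 libraries was left out. Over the 3 weekly tests 13 of the 34 genes were called at 1 week or more, where 33.8% of all genes were, so that this share lay near that of all genes. Rpa3 alone was called at 2 weeks (7.22% of all genes at 2 weeks or more), and none of the 34 at all 3. By sign alone, 12 of the 34 differences were positive at all 3 weeks (25.4% of all genes), 7 were negative at all 3 (26.2%) and 15 changed sign between weeks (48.5%). The week 2 calls held in 4 of 13 alternatives for Xrcc1 to 11 for Ercc1, and the week 25 calls in 3 of 13 for Ercc2 to all 13 for Lig3.

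Markers of other cell types differed between UVB and control epidermis at week 25, and not at that week alone. Macrophage genes summed to 62.7 to 64.8 CPM in UVB epidermis at week 2 and 79.2 to 82.2 CPM at week 15. Control epidermis had 44.5 to 45.1 and 49.8 to 56.6 CPM at these weeks. Fibroblast sums were lower in UVB epidermis at weeks 2 and 15, as given above. Of 6 fibroblast genes tested, 5 rose with UVB at week 25, among them the collagens Col1a2 (log2 4.3 ± 0.77, edgeR adjusted p = 0.00585) and Col3a1 (4.81 ± 0.88, adjusted p = 0.00629), on the low sums given above. Macrophage genes summed to 108 to 137 CPM in UVB epidermis and 32.7 to 36 CPM in control epidermis at week 25, and 4 of the 6 rose, with the smallest p for the receptor Csf1r, which Langerhans cells of the epidermis also express (2.46 ± 0.27, adjusted p = 0.00132). Langerhans and dendritic genes summed to 804 to 817 CPM in UVB epidermis and 429 to 563 CPM in control epidermis at week 25, and 4 of 5 rose. Hair follicle genes summed to 108 to 350 CPM in UVB epidermis and 723 to 1250 CPM in control epidermis at that week, and 3 of 9 tested fell. In the second control library of week 25, 1 fibroblast gene and 1 macrophage gene (Lum and Mrc1) were at 0. The part of these cells in the 6 calls of week 25 (Lig3, Ercc6, Rev3l, Rpa3, Polh and Ercc2) was not tested.

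Of the 8 damage recognition genes, 0 were called at week 2 or week 15, 1 fell at week 25 and 1 fell as the mean over weeks, and both calls were Ercc6. The shares of all genes, called in either direction at weeks 2, 15 and 25 and for the mean, were 17.8%, 3.49%, 21.5% and 29.5% as above, so that with 8 genes these counts are not set apart from them. Xpc, the lesion sensor of global repair, had 15.1 and 20.9 CPM in UVB epidermis at week 2, against 21.0 and 15.6 CPM in control epidermis. Week 15 values were 26.6 and 31.7 CPM in UVB epidermis and 29.0 and 35.6 CPM in control epidermis, and at week 25 35.5 and 30.5 CPM in UVB epidermis and 28.8 and 25.5 CPM in control epidermis. The groups overlapped at weeks 2 and 15 and did not at week 25. Xpc differed by a log2 of -0.07 ± 0.25 (SE) at week 2, -0.17 ± 0.24 at week 15 and 0.29 ± 0.24 at week 25, with edgeR adjusted p-values of 0.856, 0.735 and 0.406.

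Ddb2, which hands cyclobutane dimers to XPC, was measured on few counts. It had 4.16 and 6.91 CPM in UVB epidermis at week 2, against 5.12 and 0.421 CPM in control epidermis, the last value being a single count (1 count). At week 15 UVB epidermis had 16.8 and 13 CPM and control epidermis 11 and 16 CPM. At week 25 UVB epidermis had 7.93 and 8.15 CPM and control epidermis 11.4 and 7.35 CPM. The groups overlapped at every week, and a change in Ddb2 was not detectable at this depth: the log2 differences were 0.74 ± 0.61, 0.11 ± 0.51 and -0.21 ± 0.53 (edgeR adjusted p = 0.409, 0.934 and 0.808). The week 2 value rested on single control libraries: it was 3.67 (adjusted p = 0.0166) without the first, which leaves the 1 count alone, and 0.11 (adjusted p = 0.915) without the second. Of its exon bases 33.5% are shared with Acp2 on the opposite strand, and without a stated strand setting their reads cannot be told apart.

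Ercc6, which encodes CSB, the remodeller that recognises a stalled RNA polymerase, was the recognition gene that fell. At week 25 it had 75.8 and 98.2 CPM in UVB epidermis, against 150 and 158 CPM in control epidermis, with no overlap. Earlier it had 99.3 and 102 CPM in UVB epidermis and 119 and 105 CPM in control epidermis at week 2, and 127 and 121 CPM in UVB epidermis and 183 and 130 CPM in control epidermis at week 15. UVB libraries were lower than the controls of their own week throughout. The log2 difference was -0.82 ± 0.17 (edgeR adjusted p = 0.0104), and over the weeks it was -0.46 ± 0.12 (adjusted p = 0.015). The call over the weeks was lost in 2 of 20 alternatives, with the length offset (-0.24, adjusted p = 0.0533) and without the first week 15 control (-0.38, adjusted p = 0.0709). Its partners in transcription-coupled repair were not called at any week: Ercc8, which encodes CSA, differed by 0.22 ± 0.14 over the weeks and Uvssa by -0.35 ± 0.13 (edgeR adjusted p = 0.253 and 0.0654). The remaining recognition genes, Ddb1, Rad23b and Cetn2, had differences over the weeks of -0.13 ± 0.12, -0.14 ± 0.08 and 0.25 ± 0.11, none of them called.

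Of the 10 TFIIH subunits, 1 rose at week 2 (8.09% of all genes did), 1 fell at week 25 (10.9%) and 2 rose over the weeks (14.4%), shares near those of all genes. Mnat1, which assembles the CDK-activating kinase module, was the one called at week 2. It had 53.3 and 55.1 CPM in UVB epidermis and 35.4 and 27.4 CPM in control epidermis, and the groups did not overlap. At week 15 it had 39.0 and 37.5 CPM in UVB epidermis and 25.2 and 27.3 CPM in control epidermis, and at week 25 44.7 and 31.6 CPM in UVB epidermis and 31.7 and 29.7 CPM in control epidermis, where the groups overlapped. The log2 difference was 0.74 ± 0.21 at week 2 (edgeR adjusted p = 0.0336) and 0.52 ± 0.12 over the weeks (adjusted p = 0.00822), and the call for the mean was kept under all 20 alternatives. Ccnh, the cyclin of the same module, rose over the weeks by 0.34 ± 0.1 (edgeR adjusted p = 0.0269), a call that held in 12 of 20 alternatives. Cdk7, its kinase, differed by -0.11 ± 0.09 and was not called.

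Ercc2, the helicase XPD of the TFIIH core, fell at week 25. It had 39.8 and 45.4 CPM in UVB epidermis and 68.4 and 63.6 CPM in control epidermis, without overlap, a log2 of -0.63 ± 0.2 (edgeR adjusted p = 0.0423). With upper quartile scaling the value was -0.45 (adjusted p = 0.138). Of its exon bases 16.5% are shared with Klc3 on the opposite strand. Ercc3, the XPB translocase, and the core subunits Gtf2h1, Gtf2h2, Gtf2h3, Gtf2h4 and Gtf2h5 were not called at any week or for the mean, with differences over the weeks between -0.04 ± 0.12 for Gtf2h2 and 0.33 ± 0.17 for Gtf2h4.

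Of the 7 verification and incision genes, 4 rose at week 2, where 8.09% of all genes did. Ercc1, the binding subunit of the 5′ nuclease, had 132 and 134 CPM in UVB epidermis at week 2, against 56.6 and 52.2 CPM in control epidermis. This is a fold of 2.37 and a log2 of 1.25 ± 0.28 (edgeR adjusted p = 0.0139). Week 15 brought 114 and 103 CPM in UVB epidermis and 98.9 and 97.4 CPM in control epidermis. At week 25 it had 113 and 85.3 CPM in UVB epidermis and 114 and 55.2 CPM in control epidermis, where the 2 control libraries stood far apart and the groups overlapped. The log2 differences were 0.12 ± 0.26 at week 15 and 0.24 ± 0.26 at week 25 (edgeR adjusted p = 0.84 and 0.541). Of the exon bases of Ercc1, 7.13% are shared with Cd3eap on the opposite strand. Its nuclease partner Ercc4, or XPF, differed by -0.33 ± 0.18 at week 2 and was not called at any week.

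Ercc5, the 3′ nuclease XPG, had 87.2 and 109 CPM in UVB epidermis at week 2 and 70.1 and 49.3 CPM in control epidermis. The groups did not overlap, and the log2 difference was 0.67 ± 0.17 (edgeR adjusted p = 0.0247). Xpa, which positions both nucleases, did not follow them. It had 25.3 and 24.2 CPM in UVB epidermis at week 2 and 33.3 and 35.0 CPM in control epidermis. At week 15 it had 23.9 and 25.9 CPM in UVB epidermis and 25.2 and 23.4 CPM in control epidermis, and at week 25 26.8 and 26.9 CPM in UVB epidermis and 23.4 and 22.2 CPM in control epidermis. UVB libraries were lower at week 2, overlapped the controls at week 15 and were higher at week 25. The log2 differences of Xpa were -0.5 ± 0.18, 0.02 ± 0.18 and 0.24 ± 0.18, with edgeR adjusted p-values of 0.0825, 0.976 and 0.362.

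The subunits of replication protein A, the trimer that coats single-stranded DNA, parted. Rpa3, the smallest subunit, had 33.8 and 43.7 CPM in UVB epidermis at week 2, against 19.7 and 16 CPM in control epidermis. Its week 15 values were 41.4 and 28.9 CPM in UVB epidermis and 16.4 and 24.9 CPM in control epidermis, and at week 25 37.1 and 32.1 CPM in UVB epidermis and 16.9 and 16.7 CPM in control epidermis. All 6 UVB libraries stood above all 6 control libraries. Rpa3 was the one gene of the 34 without overlap over the 12 libraries, where 9.53% of all genes had none. Its log2 difference was 1.07 ± 0.28 at week 2, 0.73 ± 0.27 at week 15 and 1.04 ± 0.27 at week 25 (edgeR adjusted p = 0.0249, 0.149 and 0.0221), and 0.95 ± 0.16 over the weeks (adjusted p = 0.00112). Rpa2, the phosphorylated middle subunit, had 24.2 and 32.6 CPM in UVB epidermis at week 2 and 16.5 and 12.6 CPM in control epidermis. At weeks 15 and 25 it had 42.4, 51.4, 45.6 and 36.3 CPM in UVB epidermis and 23.4, 34.6, 26.4 and 24.9 CPM in control epidermis. UVB libraries stood above the controls of their own week throughout. The log2 difference of Rpa2 was 0.91 ± 0.27 at week 2 (edgeR adjusted p = 0.0423) and 0.75 ± 0.15 over the weeks (adjusted p = 0.00289). Rpa1, the large subunit, had 70.5 to 100 CPM over the UVB libraries and 73.2 to 107 CPM over the controls, a log2 of -0.12 ± 0.1 over the weeks (adjusted p = 0.403).

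**Figure D2:**
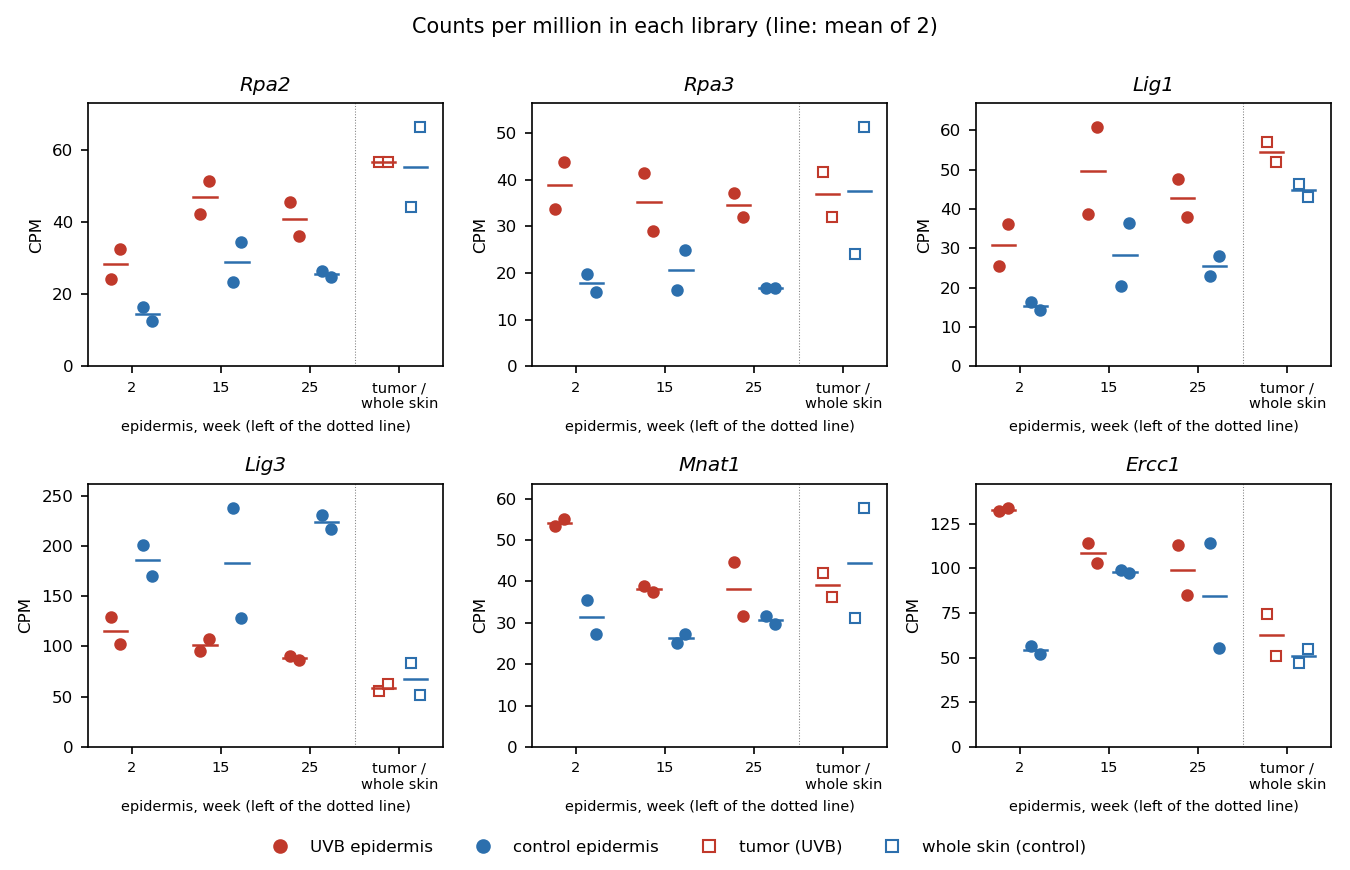
CPM of 6 genes in each library, with a line at the mean of each group of 2; UVB groups are left of their controls, and tumors left of whole skin. All 6 UVB epidermis libraries lie above all 6 controls for Rpa3, and Ercc1 is parted from its controls at week 2 (132 and 134 against 56.6 and 52.2 CPM) and not at week 25.

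The ligation genes moved in opposite directions. Lig1, the ligase that seals the gap in dividing cells, had 25.5 and 36.3 CPM in UVB epidermis at week 2 and 16.5 and 14.3 CPM in control epidermis, then 38.7 and 60.8 CPM in UVB epidermis against 20.4 and 36.4 CPM in control epidermis at week 15, and 47.7 and 38.1 CPM in UVB epidermis against 22.9 and 28.0 CPM in control epidermis at week 25. UVB libraries were higher at each week, and the log2 difference over the weeks was 0.83 ± 0.18 (edgeR adjusted p = 0.00506), although no single week passed the threshold. Lig1 shares 3.3% of its exon bases with 6330408A02Rik on the opposite strand. Lig3, which seals it in resting cells together with XRCC1, had 129 and 102 CPM in UVB epidermis at week 2, against 201 and 170 CPM in control epidermis. At week 15 it had 95.3 and 107 CPM in UVB epidermis and 238 and 128 CPM in control epidermis, and at week 25 90.0 and 86.5 CPM in UVB epidermis and 231 and 217 CPM in control epidermis. UVB libraries were lower at each week. The log2 difference of Lig3 was -0.72 ± 0.24, -0.87 ± 0.24 and -1.34 ± 0.24 at weeks 2, 15 and 25 (edgeR adjusted p = 0.0587, 0.069 and 0.00584), and -0.98 ± 0.15 over the weeks (adjusted p = 0.000882). Xrcc1 had 41.0 and 49.2 CPM in UVB epidermis at week 2 and 71.8 and 60.2 CPM in control epidermis, a log2 of -0.59 ± 0.18 (adjusted p = 0.0491), and fell over the weeks by 0.34 on the log2 scale (SE 0.11, adjusted p = 0.0378), which held in 8 of 20 alternatives.

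Per length, Lig3 exceeded Lig1 in each control epidermis library. The ratio of Lig1 to Lig3 RPKM was 0.335 and 0.602 in UVB epidermis at week 2, against 0.139 and 0.143 in control epidermis. At week 15 it was 0.69 and 0.961 in UVB epidermis and 0.146 and 0.483 in control epidermis, and at week 25 0.9 and 0.748 in UVB epidermis and 0.168 and 0.219 in control epidermis. UVB libraries had the higher ratio at each week, and the second week 15 control library was the control nearest to them. In tumors the ratio was 1.74 and 1.41, and in whole skin 0.936 and 1.41. Lig3 shares 7.64% of its exon bases with Rffl on the opposite strand, and Rffl fell as well (log2 -0.75 ± 0.13 over the weeks, edgeR adjusted p = 0.00132). Of the gap filling polymerases, Pole rose over the weeks by 0.62 ± 0.21 (adjusted p = 0.0432, called in 12 of 20 alternatives), and Pold1 had a difference of 0.64 ± 0.27 (adjusted p = 0.0998).

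Markers of dividing cells moved with the same libraries. Summed over 30 proliferation genes, UVB epidermis had 1000 to 1350 CPM at week 2, 1640 to 1850 CPM at week 15 and 993 to 1300 CPM at week 25, against 355 to 381, 559 to 1050 and 588 to 604 CPM in control epidermis. Of the 30 genes, 27 rose at week 2, 5 at week 15, 14 at week 25 and 27 for the mean over weeks, and 0 fell in any of these tests. The smallest p-values over the weeks were those of Rrm2, a subunit of ribonucleotide reductase (log2 1.37 ± 0.11, edgeR adjusted p = 3.09e-05), and of the spindle and chromosome passenger genes Tpx2 (1.6 ± 0.21, adjusted p = 0.00037) and Birc5 (1.9 ± 0.25, adjusted p = 0.00042). In the week 15 control with the higher sum, the second one, Rpa2, Rpa3, Lig1 and Pole were higher, and Lig3 lower, than in the first. In UVB epidermis of week 15 the second library had more of the proliferation gene Mki67 (220 against 182 CPM). There Rpa2 and Lig1 were higher than in the first library, but Rpa3 was lower and Lig3 higher. Hair follicle sums were lower in UVB epidermis at week 2 (10 genes, 31.6 to 360 CPM, against 2210 to 2530 CPM in control epidermis). The part of proliferation and of hair follicle content in the differences of Lig1, Lig3, Rpa2, Rpa3 and Pole was not tested.

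**Figure D3:**
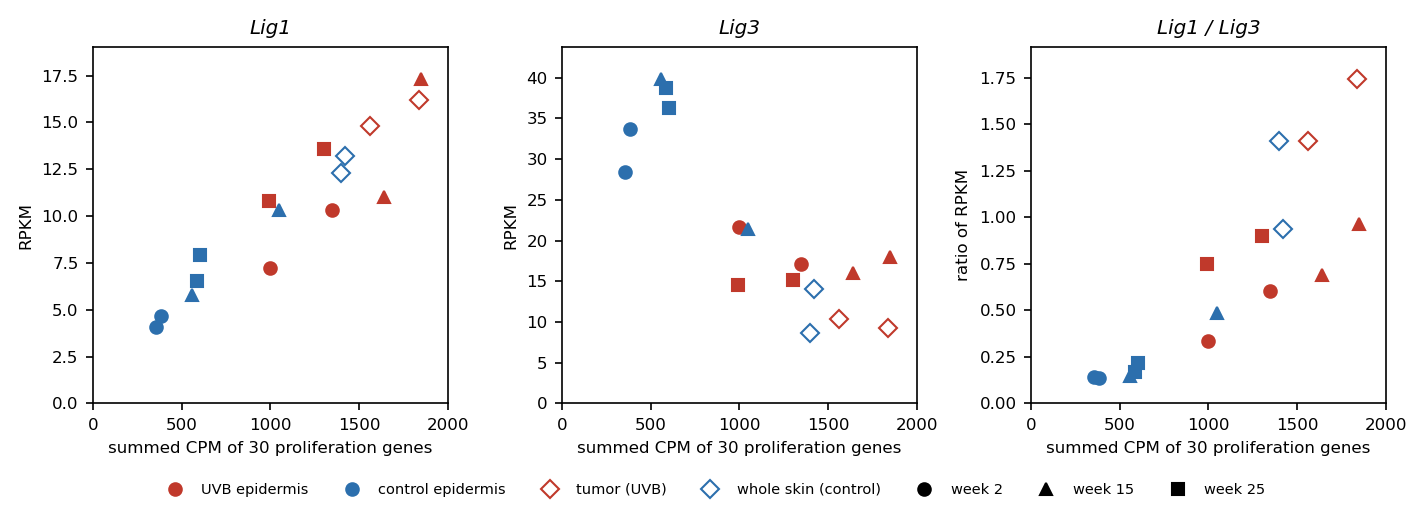
RPKM of Lig1 and Lig3 and their ratio in each of the 16 libraries (vertical axes) against the summed CPM of 30 proliferation genes (horizontal axis). The ratio runs between 0.139 in the first week 2 control and 1.74 in the first tumor, and the control epidermis library with the highest proliferation sum, 1050 CPM, has the highest ratio among controls, 0.483.

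Of the 4 translesion polymerases, 2 rose with UVB at week 2 and 2 fell at week 25 (8.09% of all genes higher and 10.9% lower), and every UVB library stood above both controls at week 2 and below both at week 25. Among all 34 genes, in either direction, 23 had no overlap at week 2 and 25 had none at week 25. The share of all genes is not given for single weeks, so the lack of overlap is not read as a trait of these 4. Polk, a polymerase that extends past bulky lesions, had 36.1 and 60.3 CPM in UVB epidermis at week 2, against 25.6 and 19.8 CPM in control epidermis, then 65.5 and 51.7 CPM in UVB epidermis at week 15, against 38.2 and 32.1 CPM in control epidermis, and 30.2 and 30 CPM in UVB epidermis at week 25, against 44.0 and 42.5 CPM in control epidermis. UVB libraries were higher at weeks 2 and 15 and lower at week 25, without overlap at any week. The log2 difference of Polk was 1.04 ± 0.26 at week 2, 0.71 ± 0.24 at week 15 and -0.52 ± 0.25 at week 25 (edgeR adjusted p = 0.021, 0.13 and 0.151). Rev1, the scaffold that recruits the others, had 12.3 and 24.5 CPM in UVB epidermis at week 2, against 8.72 and 2.95 CPM in control epidermis, the last value resting on 7 counts. It rose at week 2 by 1.51 ± 0.48 (edgeR adjusted p = 0.0494). Rev1 shares 29.1% of its exon bases with Eif5b on the opposite strand, and Eif5b fell at week 2 (-0.8 ± 0.24, adjusted p = 0.0433).

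Polh, which encodes polymerase eta, had 42.3 and 47.0 CPM in UVB epidermis at week 2 and 32.4 and 24.0 CPM in control epidermis. At week 15 Polh had 35.9 and 41.2 CPM in UVB epidermis and 44.8 and 33.7 CPM in control epidermis, and at week 25 32.9 and 28.4 CPM in UVB epidermis and 48.4 and 55.0 CPM in control epidermis. The groups overlapped at week 15 alone. The log2 difference was 0.61 ± 0.21, -0.05 ± 0.21 and -0.75 ± 0.21 (edgeR adjusted p = 0.0682, 0.933 and 0.0281). Rev3l, the catalytic subunit of polymerase zeta, had 37.8 and 47.5 CPM in UVB epidermis at week 2 and 36.8 and 21.1 CPM in control epidermis. It had 58.9 and 48.1 CPM in UVB epidermis and 68.5 and 66.7 CPM in control epidermis at week 15, and 47.0 and 41.8 CPM in UVB epidermis and 94.3 and 85.3 CPM in control epidermis at week 25. It fell at week 25 by 1.01 on the log2 scale (SE 0.22, edgeR adjusted p = 0.0125).

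The change of the UVB effect between weeks was tested directly. Week 25 minus week 2, 3 of the 34 genes were called, all with a lower effect at week 25 (7.92% of all genes, 4.59% lower), and all are translesion polymerases: Rev3l at -1.51 ± 0.32, Polh at -1.36 ± 0.3 and Polk at -1.56 ± 0.36 (edgeR adjusted p = 0.0229, 0.0237 and 0.0275). Rev1 had the widest difference, -2.19 ± 0.64 (adjusted p = 0.0584). Between weeks 15 and 2, edgeR called 0 of the 34 genes and 0% of all genes, with 3 of the 34 at an unadjusted p under 0.05. The smallest p-values there were those of Ercc1 (-1.13 ± 0.38) and Rev3l (-0.86 ± 0.32). The 3 calls for week 25 minus week 2 came down to 0 or 1 when any library but the first week 2 control was left out, and to 0 in a fit of all 16 libraries. Without that first week 2 control they came to 8. The same difference of effects was called as higher for 5 of 6 fibroblast genes tested, such as Col1a2 (6.6 ± 1.1, adjusted p = 0.0125) and Col3a1 (7.03 ± 1.22, adjusted p = 0.0138), and for 2 of 6 macrophage genes, Csf1r (2.22 ± 0.39, adjusted p = 0.0138) and C1qa (4.08 ± 1.04, adjusted p = 0.039). Their part in the 3 calls was not tested.

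The control libraries differed between those weeks as well. Week 25 minus week 2 in control epidermis, 7 genes were called, 6 higher and 1 lower at week 25 (13.7% of all genes, 8.47% higher and 5.24% lower), and all 4 translesion polymerases were among the 6. Rev3l had 94.3 and 85.3 CPM in control epidermis at week 25, against 36.8 and 21.1 CPM at week 2 (1.57 ± 0.23, edgeR adjusted p = 0.00616). Polh (0.83 ± 0.21, adjusted p = 0.0316), Rev1 (20.5 and 25.6 CPM at week 25 against 8.72 and 2.95 CPM at week 2, 1.84 ± 0.47, adjusted p = 0.0321) and Polk (0.88 ± 0.26, adjusted p = 0.0457) rose likewise. Ddb1 (406 and 441 CPM at week 25 against 323 and 242 CPM at week 2, 0.55 ± 0.16, adjusted p = 0.0446) and Ercc5 (95.3 and 89.6 CPM at week 25 against 70.1 and 49.3 CPM at week 2, 0.59 ± 0.17, adjusted p = 0.0464) also rose, and the TFIIH subunit Gtf2h2 fell (27.9 and 28.8 CPM at week 25 against 42.1 and 44.2 CPM at week 2, -0.64 ± 0.18, adjusted p = 0.0414). In UVB epidermis the same weeks gave 0 calls among the 34 genes (4.52% of all genes), with 5 at an unadjusted p under 0.05 and 1 by DESeq2. Its smallest p was that of Xpc, with 35.5 and 30.5 CPM in UVB epidermis at week 25 against 15.1 and 20.9 CPM at week 2 (0.88 ± 0.24, adjusted p = 0.0642), and next was Polk (-0.67 ± 0.25). The comparisons share the week 2 and week 25 control libraries. The count in controls was 1 without the second week 2 control, 14 without the first, 1 without the first week 25 control and 2 without the second. Between weeks 15 and 2 in controls edgeR called 0 of the 34 at the adjusted threshold (0.0223% of all genes). At an unadjusted p under 0.05 there were 15, and DESeq2 called 4, both without a share of all genes to set beside them. The smallest edgeR p-values were those of Rev3l (68.5 and 66.7 CPM at week 15 against 36.8 and 21.1 CPM at week 2, 1.18 ± 0.23, adjusted p = 0.0754) and Ercc5 (89.5 and 96 CPM at week 15 against 70.1 and 49.3 CPM at week 2, 0.61 ± 0.17, adjusted p = 0.0912). The 7 calls of week 25 minus week 2 held in 3 of 13 alternatives for Ercc5 to 12 for Rev3l. Fibroblast sums were lower in these controls at week 25, as given above, with 2 of 6 genes called as lower, and their part was not tested.

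**Figure D4:**
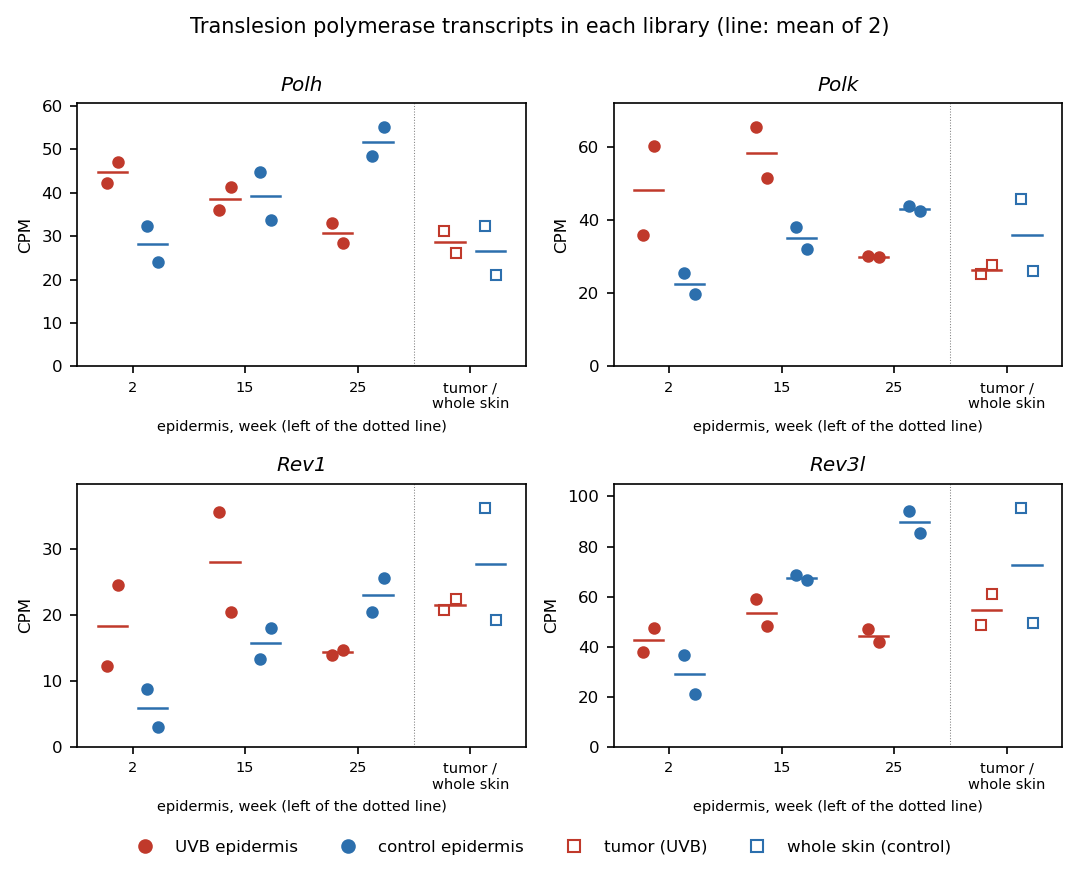
CPM of the 4 translesion polymerases in each library, with a line at the mean of each group of 2; UVB groups are left of their controls, and tumors left of whole skin. Control epidermis climbs between week 2 and week 25 for each of the 4 (Rev3l 36.8 and 21.1 CPM at week 2, 94.3 and 85.3 CPM at week 25), and UVB epidermis lies above its controls at week 2 and below them at week 25.

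The week 25 differences ran with the annotated exon length of the gene. Over all genes the median log2 difference between UVB and control epidermis at week 25 was 0.37 for genes under 1000 bases of exon, 0.21 at 1000 to 2000, -0.02 at 2000 to 4000, -0.23 at 4000 to 8000 and -0.55 over 8000. In control epidermis, week 25 minus week 2, the same medians were -0.57, -0.26, 0.01, 0.26 and 0.53. Rpa3, with 638 bases, is the shortest of the 34 genes, and Rev3l, with 10665, and Ercc6, with 8422, are the longest. With an offset that removes this trend in each library, added after seeing the data, 2 of the 6 calls at week 25 were kept: Lig3 at -1.05 (edgeR adjusted p = 0.0145) and Polh at -0.77 (adjusted p = 0.0278). The others came to 0.63 for Rpa3 (adjusted p = 0.121), -0.35 for Ercc6 (adjusted p = 0.141), -0.41 for Rev3l (adjusted p = 0.195) and -0.53 for Ercc2 (adjusted p = 0.0792). Of the 7 calls between weeks in controls, Polh (0.82, adjusted p = 0.048) and Rev3l (0.97, adjusted p = 0.0386) were kept. For the change of the UVB effect, Polh (-1.38, adjusted p = 0.0268) and Polk (-1.37, adjusted p = 0.0426) were kept and Rev3l came to -0.93 (adjusted p = 0.0903). At week 2 the UVB difference over all genes had a rank correlation with length of 0.03, and 9 genes were called with the offset.

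**Figure D5:**
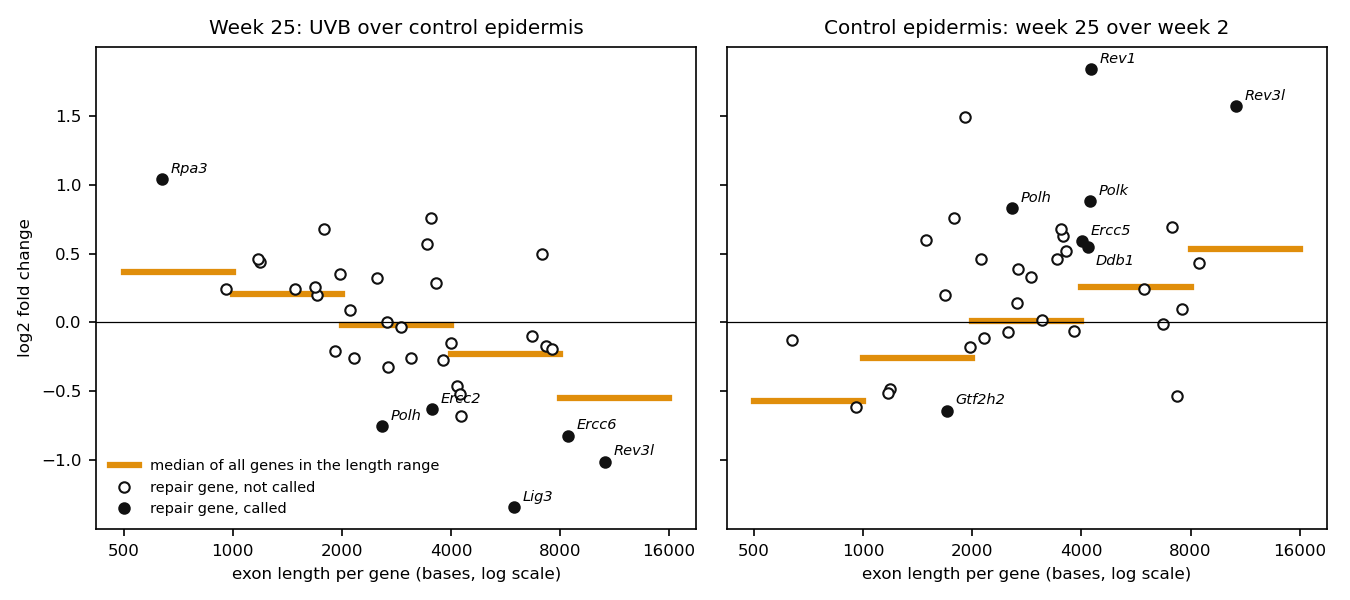
Log2 difference of the 34 genes against exon length (log scale), for UVB over control epidermis at week 25 (left) and for control epidermis at week 25 over week 2 (right), with bars at the median of all genes in 5 length ranges; filled points are called. The medians fall to -0.55 in the longest range on the left and climb to 0.53 on the right; Lig3 on the left and Rev1 and Rev3l on the right stand away from the bars.

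No call was made among these genes between tumors and whole skin. edgeR's quasi-likelihood test called 0 of the 34, with 0 at an unadjusted p under 0.05, and DESeq2 called 0 of them; over all genes edgeR called 0% in this comparison of 4 libraries. The median log2 difference was -0.11 for the 34 genes and -0.06 for all genes. The smallest p-values were those of Gtf2h2, with 26.1 and 21.6 CPM in tumors and 33.7 and 30.5 CPM in whole skin (-0.5 ± 0.29, adjusted p = 0.911), and of Ercc5, with 66.4 and 70.8 CPM in tumors and 111 and 67.4 CPM in whole skin (-0.46 ± 0.31, adjusted p = 0.922). The 2 whole skin libraries differed from each other far more than the 2 tumors did, with a chi-square per degree of freedom of 4.62 between tumors and 46.2 between whole skin libraries. The number of calls changed when either whole skin library was left out. Such a fit takes its residual spread from the 2 tumors alone, so that no result on these genes is drawn from it.

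Set beside UVB epidermis of week 25, tumors again gave 0 calls among the 34 genes by edgeR, where 29.5% of all genes were called. Of the 34, 3 had an unadjusted p under 0.05, DESeq2 called 1, and a fit of these 4 libraries alone called 8. These counts come without the share of all genes, and no result on the 34 genes is drawn from them. Pole had 31.1 and 25.2 CPM in tumors and 16.8 and 11.9 CPM in UVB epidermis (0.99 ± 0.37, adjusted p = 0.0597), and Ercc1 had 74.2 and 51.0 CPM in tumors and 113 and 85.3 CPM in UVB epidermis (-0.65 ± 0.28, adjusted p = 0.0962). Neither pair of groups overlapped, and 22 of the 34 genes had no overlap here, a count given without the share of all genes.

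Whole skin differed from control epidermis of week 25 in 13 of the 34 genes, 7 higher and 6 lower (55.6% of all genes, 31.9% higher and 23.7% lower), a contrast of tissues with no irradiation. Lig3 had 83.9 and 51.9 CPM in whole skin and 231 and 217 CPM in control epidermis (-1.68 ± 0.27, edgeR adjusted p = 0.00021). Rad23b had 132 and 153 CPM in whole skin and 250 and 243 CPM in control epidermis (-0.76 ± 0.15, adjusted p = 0.000751), and Ercc3 had 47.1 and 37.6 CPM in whole skin and 88.8 and 91.0 CPM in control epidermis (-1.04 ± 0.21, adjusted p = 0.000906). These 3 stood lower in both whole skin libraries. Rpa2 had 44.1 and 66.3 CPM in whole skin and 26.4 and 24.9 CPM in control epidermis (1.14 ± 0.27, adjusted p = 0.00329). Pole had 34 and 21.9 CPM in whole skin and 8.96 and 11.4 CPM in control epidermis (1.5 ± 0.38, adjusted p = 0.00446), and Polh had 32.3 and 21.0 CPM in whole skin and 48.4 and 55.0 CPM in control epidermis (-0.91 ± 0.26, adjusted p = 0.00853). Of the 34 genes, 21 had no overlap between these groups of 2, against 75% of all genes, and the 6 given here were among the 21. Rpa3, Ccnh, Lig1, Xpc and Cetn2 were also higher in whole skin, and Ddb1 and Ercc1 lower. The median of all genes was 0.18 here, and with upper quartile scaling it was 0.49 and the split of the 34 genes 12 higher and 3 lower; with the length offset the split was 5 higher and 11 lower. Lig3, Ercc3 and Rpa2 were called in all 12 alternatives. With the abundance offset the log2 of Pole came to 0.17 (adjusted p = 0.663), that of Rad23b to -0.24 (adjusted p = 0.104) and that of Ddb1 to 0.05 (adjusted p = 0.839), and the calls of Xpc, Ercc1 and Lig1 were lost as well. The count was 8 without the second whole skin library, 7 without the first week 25 control, 7 without the second and 5 in a fit of these 4 libraries. Fibroblast and muscle sums differed between these tissues as given above, and their part in the 13 calls cannot be told apart from the tissue.

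The tumor difference from whole skin minus the UVB difference in week 25 epidermis gave 0 calls among the 34 genes by edgeR and by DESeq2 (0.0926% of all genes by edgeR), with 6 at an unadjusted p under 0.05. Lig3 led with 1.11 ± 0.38 (adjusted p = 0.207). It had 55.4 and 62.4 CPM in tumors and 83.9 and 51.9 CPM in whole skin, which overlapped, beside 90.0 and 86.5 CPM in UVB epidermis and 231 and 217 CPM in control epidermis of week 25. Ercc3 followed with 0.74 ± 0.29 (adjusted p = 0.252). It had 57.1 and 58.1 CPM in tumors and 47.1 and 37.6 CPM in whole skin, beside 70.9 and 72.7 CPM in UVB epidermis and 88.8 and 91.0 CPM in control epidermis of week 25, so that tumors stood above whole skin and UVB epidermis below its controls. The count was 3 without the first whole skin library.

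Other repair genes showed where the excision repair set stood among its neighbours. Of 12 further excision repair genes, 0 were called at weeks 2 and 15, 1 fell at week 25, which was the remodeller subunit Ino80 (log2 -0.67 ± 0.16, edgeR adjusted p = 0.0175), and 2 fell over the weeks: the deubiquitinase Usp7 (-0.34 ± 0.11, adjusted p = 0.0345) and the remodeller Chd1l (-0.33 ± 0.11, adjusted p = 0.0403). Of 13 further gap filling genes, 3 rose at week 2, among them the clamp loader subunit Rfc3 (1.23 ± 0.28, adjusted p = 0.0157) and the sliding clamp Pcna (0.82 ± 0.23, adjusted p = 0.0333), and 8 rose over the weeks with 0 lower, Rfc3 (0.83 ± 0.17, adjusted p = 0.00351), Pole4 (0.55 ± 0.13, adjusted p = 0.00797) and the flap nuclease Fen1 (0.55 ± 0.13, adjusted p = 0.00879) having the smallest p. Their median over the weeks was 0.54, against -0.02 for all genes. Of 11 tested further translesion genes, Wdr48, a cofactor of the PCNA deubiquitinase (-1.05 ± 0.2, adjusted p = 0.00644), and Shprh, a PCNA ubiquitin ligase (-0.65 ± 0.16, adjusted p = 0.0214), fell at week 25 and Primpol rose (1.27 ± 0.33, adjusted p = 0.0217). Base excision genes gave 1 rise and 1 fall among 16 tested over the weeks, Neil3 (1.25 ± 0.32, adjusted p = 0.012) and Aptx (-0.42 ± 0.11, adjusted p = 0.0153), and mismatch repair 1 rise and 1 fall among 8, Exo1 (1.75 ± 0.35, adjusted p = 0.00305) and Pms1 (-0.93 ± 0.22, adjusted p = 0.00889).

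A list of p53 target genes holding none of the 34 gave 9 rises and 0 falls among 23 tested at week 2, 6 and 0 at week 15, and 4 and 3 at week 25. Over all genes 17.8%, 3.49% and 21.5% were called in either direction. The list summed to 3020 to 3170 CPM in UVB epidermis at week 2 and 2510 to 3200 CPM in control epidermis, which overlapped. Its member Cdkn1a overlapped as well at that week, with 378 and 385 CPM in UVB epidermis and 349 and 386 CPM in control epidermis. At week 2 the smallest p-values were those of the receptor Eda2r (log2 4.46 ± 0.37, edgeR adjusted p = 0.00129), the cyclin Ccng1 (2.3 ± 0.22, adjusted p = 0.00129) and the cell death gene Pmaip1 (2.26 ± 0.33, adjusted p = 0.00417). The UVB effect on Eda2r (-4.5 ± 0.48, adjusted p = 0.00495) and Ccng1 (-1.97 ± 0.29, adjusted p = 0.0095) was lower at week 25 than at week 2. No relation between the lists was tested.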

How the data were processed

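Per the labels' protocols, Qiagen AllPrep extraction and standard Illumina library preparation were used. The authors deposited raw read counts for 24421 genes (mm10 coordinates) in a single table, made from alignments without duplicates, per the file headers. HISAT2, Picard, featureCounts and DESeq2 on mm10 are named in the submitters' processing notes; strand, the treatment of reads mapping to several places, the annotation release and versions were not given in the sources used here. Removing duplicates limits abundant genes, and the highest value among the 34 genes was 0.677 counts per base. Reads of genes that overlap on opposite strands cannot be told apart; 7 of the 34 share exon bases with a neighbour.

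Tests used edgeR 4.0.16 under R 4.3.3 (filterByExpr with minimum count 10 and total 15, TMM scaling, quasi-likelihood F test, prior count 0.125, Benjamini-Hochberg adjustment over all genes tested, threshold 0.05). The 12 epidermis libraries were fitted together (13478 genes, 6 residual df, coefficient of biological variation 19.1%), with week and UVB as additive terms for the mean over weeks (8 residual df, 22.7%). Tumors and whole skin were fitted on 4 libraries (14661 genes, 2 residual df, 29.8%), and comparisons across tissues on all 16 (15126 genes, 8 residual df, 23.0%). The scripts were tested on simulated data. Alternatives were DESeq2 1.42.0, 2 other scalings, no filter, other sets of libraries, each library left out, a replicate block and, added after seeing the data, offsets for length and abundance and the comparison of weeks in UVB epidermis. The 34 genes, the other lists and the designs were chosen with earlier results of these data known. Values in every library are given for up to 6 called genes with the smallest p in a comparison (the 2 smallest where none was called) and for Xpa, Xpc, Ddb2, Ercc1 and Polh in epidermis; of the other pathway lists, up to 3 called genes with the smallest p are named, for the comparisons in which the list is described.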

Additional observations from a re-analysis of the deposited data

Results flagged for a closer look

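The UVB effect differed between week 25 and week 2 by a test of the difference itself (edgeR quasi-likelihood, adjusted over all genes) for 3 of the 34 genes, all translesion polymerases. Over all genes 7.92% were called in either direction and 4.59% with a lower effect at week 25. The 3 calls are 8.82% of the 34 genes, near the first share and above the second, and this difference in shares was not tested. The log2 effect at week 25 minus that at week 2 was -1.51 for Rev3l, -1.56 for Polk and -1.36 for Polh. In the same libraries control epidermis had a higher level at week 25 than at week 2 for each of them (1.57 for Rev3l, 0.88 for Polk and 0.83 for Polh), and in UVB epidermis the same weeks differed by 0.07 for Rev3l (adjusted p = 0.892), -0.67 for Polk (adjusted p = 0.136) and -0.53 for Polh (adjusted p = 0.157). With the offset for length the calls of Polh (-1.38, adjusted p = 0.0268) and Polk (-1.37, adjusted p = 0.0426) were kept, and Rev3l came to -0.93 (adjusted p = 0.0903). Without the second UVB library of week 2, or without either UVB library of week 25, 0 of the 34 genes were called. Fibroblast and macrophage genes were called as higher in the same difference (Col1a2 6.6, Csf1r 2.22). The part of depth and of these cells in the differences was not tested.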

How the results depend on the processing

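The 9 calls for the mean over weeks ran between 6 and 11 over the 20 alternatives, and Mnat1, Rpa2, Rpa3, Lig1 and Lig3 were called in each. The other counts of called genes moved by over 1.5 times under the settings that follow. Counts under these settings are given without the share of all genes called under the same setting. They cannot tell a shift of the repair genes from a shift of all genes, and are not read as a trait of the repair genes. At week 2 the 8 calls became 2 in a fit of all 16 libraries and 1 in a fit of 4, and 0 to 15 with a library left out. At week 15 the 0 calls became 1 with no filter and 1 by DESeq2, and 0 to 4 with a library left out. At week 25 the 6 calls became 2 with the length offset, 2 in a fit of all 16 libraries and 12 in a fit of 4, and 1 to 3 with a library left out. For the UVB effect at week 15 minus week 2 the 0 calls became 0 to 2 with a library left out. For week 25 minus week 2 the 3 calls became 6 by DESeq2, 5 with the abundance offset (1 higher and 4 lower) and 0 in a fit of all 16 libraries, and 0 to 8 with a library left out. In control epidermis, week 15 minus week 2 gave 4 calls with no filter, 4 by DESeq2 and 0 to 9 with a library left out. Week 25 minus week 2 gave 3 with the length offset, 2 in a fit of all 16 libraries and 0 in a fit of 4, and 1 to 14 with a library left out; its split of 6 higher and 1 lower became 5 and 2 with DESeq2 size factors, and 3 and 2 with upper quartile scaling and with the abundance offset. In UVB epidermis the same weeks gave 1 call by DESeq2 and 1 in a fit of 4 libraries. Tumors against whole skin gave 0 to 11 calls with a library left out. Tumors against UVB epidermis gave 1 with DESeq2 size factors, 1 with upper quartile scaling, 1 by DESeq2, 2 with the length offset, 1 with the abundance offset and 8 in a fit of 4 libraries. Whole skin against control epidermis gave 5 in a fit of 4 libraries and 7 to 17 with a library left out; Ddb1 turned to 0.05 there with the abundance offset. The tumor difference minus the epidermis UVB difference gave 0 to 3 with a library left out. Where a library was left out the lone sample was assumed to vary like the other groups, and the fits of 4 libraries have 2 residual degrees of freedom; the cause of the other shifts was not tested.

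The replicate numbers 0 and 1 of different groups did not pair the libraries: correlations of their deviations ran from -0.16 to 0.23 over 28 pairs of groups. With a replicate block the calls were 6 at week 2, 0 at week 15, 5 at week 25, 8 for the mean, 3 for week 25 minus week 2 of the UVB effect, 3 for those weeks in control epidermis and 12 for whole skin against control epidermis; the other comparisons gave 0. The counts with the block also come without a share of all genes. Low counts limit Ddb2 most, with 1 count in the second week 2 control.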
